A study of Mus musculus with 18 samples.

Results

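Epithelial-mesenchymal transition (EMT) is described here through 10 genes, chosen by symbol among the 21859 protein-coding genes of the deposited gene table, and through the promoter upstream transcripts (PROMPTs) of 7 of them, among 32253 in the PROMPT table. The 10 genes were 5 transcription factors that drive EMT (Zeb1, Zeb2, Snai1, Snai2 and Twist1), 2 epithelial markers (Cdh1 and Epcam) and 3 mesenchymal markers (Cdh2, Vim and Fn1). Nascent RNA was measured by TT-seq, in which cells take up 4-thiouridine for 5 min and only the RNA labelled in that time is purified and sequenced. All cells were E14 murine embryonic stem (ES) cells, a male line grown without feeders in serum, LIF and 2i, with osTIR1 integrated in the genome. There were 6 groups of 3 libraries, in which untagged cells, SPT16-AID-V5 clone 1 and SPT16-AID-V5 clone 2 were each treated for 24 h with ethanol (EtOH) or with 3-IAA, an auxin. The mini-AID degron leads to loss of the FACT subunit SPT16 when auxin is added, and each tagged line is a single isolated clone. By the methods the 3 libraries of a group are technical replicates. The dose of 3-IAA is 500 nM in the sample labels and 500 µM in the methods. Untagged cells have no degron on SPT16, so 3-IAA alone is controlled for in them.

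The level of each gene was taken from the mean of normalized reads that the authors deposited, which gives 1 value per gene for control and SPT16-depleted libraries together. The sources used here do not list the libraries that entered this mean, and all 18 were taken to have done so. Levels per library or per group were not used here, so no value below has a standard deviation or a number of replicates, and no test was possible. Whether the 10 genes differed between SPT16-depleted and control cells is held in the tables only as the fold changes and p-values of the authors' own comparison, which were not used. The values therefore describe transcription averaged over both states, and how much of a level came from either state cannot be told apart. Fewer cells with a gene active and less RNA per cell cannot be told apart either.

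In EMT, epithelial cells give up their junctions and polarity and take on a migratory state. ZEB1 and ZEB2 are zinc finger and homeodomain proteins, and SNAI1 and SNAI2 are zinc finger proteins. These 4 repress Cdh1 and other epithelial genes through E-box sequences, while TWIST1 is a basic helix-loop-helix factor that also binds E-boxes. E-cadherin, encoded by Cdh1, holds epithelial cells together and is the cadherin by which naive ES cells adhere in their colonies. Its counterpart in mesenchymal and neural cells is N-cadherin, encoded by Cdh2.

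Promoter sequences are shown because PROMPTs start at the promoters of their genes and run away from them. The table of promoters from RefSeq on GRCm38.p6 matched 5 of the 10 genes (Zeb2, Snai1, Twist1, Epcam and Vim). For 4 of them the 250 bases before an annotated start that lay outside exons of Gencode vM21 are given, 5′ to 3′ on the strand of the gene, with each CACCTG E-box (or CAGGTG, the same letters on the other strand) in capitals.
Snai1, chr2:167537945-167538194, plus strand: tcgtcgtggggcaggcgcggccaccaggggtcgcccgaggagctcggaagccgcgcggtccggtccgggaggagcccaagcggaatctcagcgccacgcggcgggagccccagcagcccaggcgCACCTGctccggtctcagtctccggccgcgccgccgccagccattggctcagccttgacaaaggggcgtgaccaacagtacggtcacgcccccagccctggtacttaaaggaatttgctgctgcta
Twist1, chr12:33957421-33957670, plus strand: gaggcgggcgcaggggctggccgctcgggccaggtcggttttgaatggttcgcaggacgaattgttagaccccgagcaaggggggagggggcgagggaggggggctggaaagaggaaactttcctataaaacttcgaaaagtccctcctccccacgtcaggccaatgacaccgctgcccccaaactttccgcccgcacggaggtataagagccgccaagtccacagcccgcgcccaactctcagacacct
Epcam, chr17:87635729-87635978, plus strand: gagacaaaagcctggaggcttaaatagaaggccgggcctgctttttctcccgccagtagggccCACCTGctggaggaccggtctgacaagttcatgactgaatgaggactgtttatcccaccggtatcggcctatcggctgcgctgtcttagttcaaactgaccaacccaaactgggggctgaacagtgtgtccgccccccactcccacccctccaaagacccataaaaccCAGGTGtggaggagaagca
Zeb2, chr2:45117443-45117692, minus strand: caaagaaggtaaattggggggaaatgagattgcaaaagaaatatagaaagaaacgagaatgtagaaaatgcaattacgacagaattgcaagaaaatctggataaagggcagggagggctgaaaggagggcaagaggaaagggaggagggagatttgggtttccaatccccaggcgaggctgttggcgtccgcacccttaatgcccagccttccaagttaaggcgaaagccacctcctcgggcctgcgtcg
Epcam had 2 such E-boxes, starting at positions -187 and -19 from the start, and Snai1 had 1, at position -126. Twist1, Vim and Zeb2 had 0 in their windows, the other 3 windows of Zeb2 included. All 250 bases of the Vim window lay in Gencode vM21 exons, and those other 3 held 191 to 250 exon bases. These windows lie inside the annotated genes. Counted by window, 2 of 8 held CACCTG on either strand. Of all 32851 promoter windows of 250 bases, 17.2% held CACCTG on either strand and 66.2% held CANNTG, which includes CACCTG. With CANNTG the same 2 genes had a match, at the same number of places. The Snai1 window was richest in G and C of those printed, at 70.0%, and had 27 CG dinucleotides. The window of Zeb2 had 49.6% G and C and 9 CG dinucleotides, against medians of 52.4% and 6 over all windows. A match is a description of the letters and does not show binding.

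All 10 genes were transcribed above 10 normalized reads, a level reached by 76.6% of the 20157 genes with reads, and 8 of the 10 were above 100, reached by 62.2%. Their levels spanned 4186-fold as normalized reads, 753-fold per kb of exon and 196-fold per kb of gene span. Both lengths are given because nascent RNA also covers introns, and the sources used here do not say whether reads in introns were counted for genes. Per kb of exon, 7 of the 10 genes lay above the median gene (120.5 normalized reads per kb), and per kb of gene span 6 did (median 21.7). Fn1 and Cdh1 together made up 80.1% of the normalized reads of the 10 genes.

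**Figure D1:**
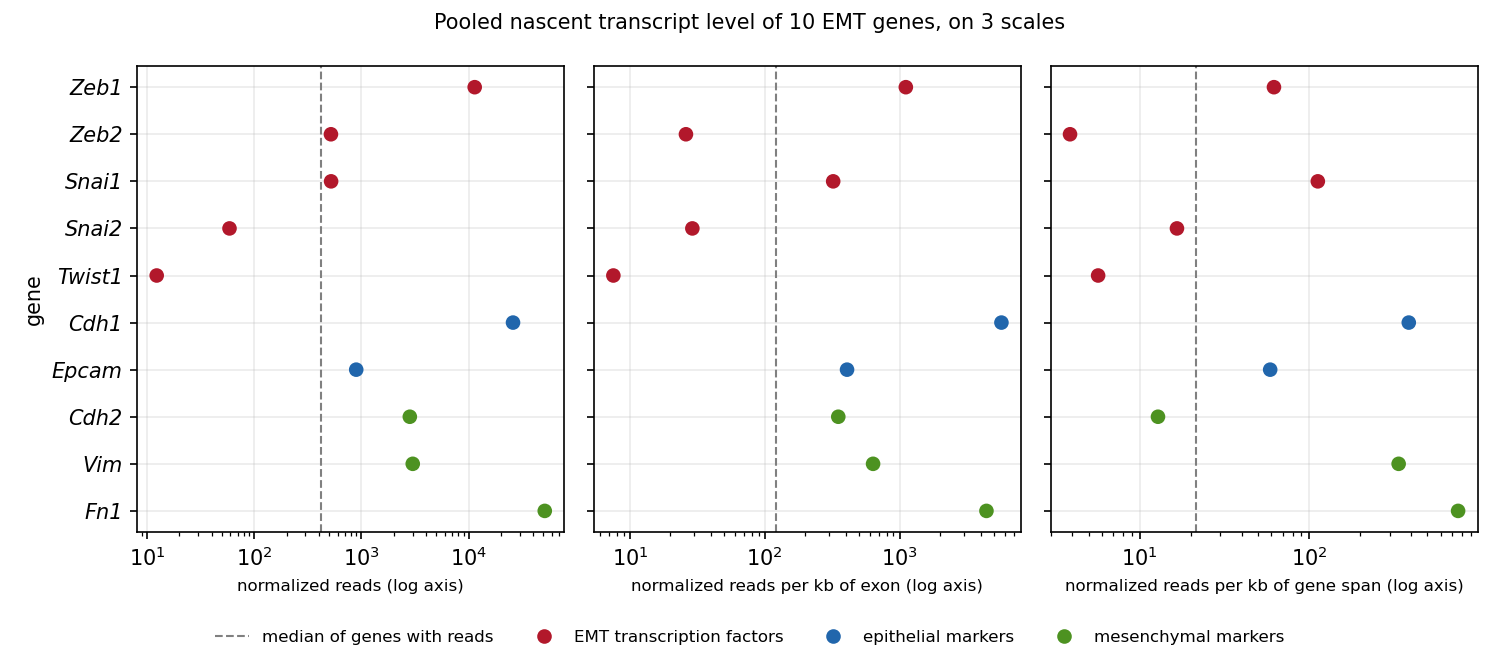
Pooled level of each gene as normalized reads, as normalized reads per kb of exon and as normalized reads per kb of gene span, on log axes. Each point is the authors' pooled mean, with no error available, and the dashed lines mark the median of genes with reads. Cdh1 and Fn1 lie at the high end on all 3 scales, and Twist1 is lowest on the first pair of scales.

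Of the 2 epithelial markers, Cdh1 was among the most transcribed genes of these cells. It had 26004 normalized reads, or 5685 per kb of exon, and ranked 150 of 20140 genes on that scale (percentile 99.3). Per kb of gene span it had 389 normalized reads and lay at percentile 95.6. Cdh1 lies on chromosome 8 of GRCm38 from 106603351 to 106670246, and no other annotated gene overlaps it on its strand. Epcam, which encodes an epithelial cell adhesion molecule that is also a surface marker of ES cells, was at a middle level. It lies on chromosome 17 from 87635979 to 87651129 and had 895 normalized reads. Its 408 normalized reads per kb of exon put it at percentile 66.8, and its 59.1 per kb of gene span at percentile 61.8. Cdh1 thus stood 13.9 times above Epcam per kb of exon and 6.58 times per kb of gene span.

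Of the 3 mesenchymal markers, Fn1 had a level like that of Cdh1. It encodes fibronectin, a glycoprotein of the extracellular matrix, and lies on chromosome 1 from 71585520 to 71653200. Its 51443 normalized reads ranked 33 among all genes with reads. Per kb of exon Fn1 had 4402 normalized reads (percentile 98.7), 0.774 times Cdh1, and per kb of gene span 760 (percentile 98.5), 1.96 times Cdh1. Which of the 2 genes was higher thus depended on the length used. Vim, which encodes the intermediate filament protein vimentin, lies on chromosome 2 from 13573927 to 13582826. It had 3014 normalized reads, 636 per kb of exon (percentile 74.9) and 339 per kb of gene span (percentile 94.4). Exons make up 53.3% of the span of Vim and 3.66% of that of Cdh2, so the choice of length moved these genes apart.

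Cdh2, on chromosome 18 from 16588877 to 16809246, had 2831 normalized reads, which is 351 per kb of exon (percentile 64.2) but 12.8 per kb of gene span (percentile 45.5). Cdh1 exceeded Cdh2 by 16.2 times per kb of exon and by 30.3 times per kb of gene span, so the direction was the same with both lengths. Among the 23 genes named Cdh and a number, a family looked at after the values had been seen, Cdh1 was highest with both lengths. Cdh4, which encodes R-cadherin, was placed 2 per kb of exon with 817 normalized reads and Cdh2 was placed 3, while per kb of gene span Cdh2 was placed 5. Cdh11, a cadherin of mesenchymal cells, had 8.43 normalized reads per kb of exon, and Cdh5, the cadherin of endothelium, had 1.82.

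The 5 EMT transcription factors ran from percentile 27.9 to 85.1 per kb of exon, all below Cdh1 and Fn1, and 2 of them, Zeb1 and Snai1, lay above the median gene per kb of exon. Zeb1, on chromosome 18 from 5591860 to 5775467, was the highest of the 5 per kb of exon, with 11414 normalized reads in all and 1112 per kb of exon (percentile 85.1). Per kb of its long gene span it had 62.2 (percentile 62.6). Zeb2, on chromosome 2 from 44983632 to 45117395, had 520 normalized reads and 26.1 per kb of exon (percentile 36.7). Per kb of gene span Zeb2 had 3.89 normalized reads, the lowest of the 10 genes on that scale (percentile 36.7). Zeb1 exceeded Zeb2 by 42.7 times per kb of exon and by 16.0 times per kb of gene span. A microRNA gene is annotated within each of them on the same strand, and Zeb2os, an antisense gene, overlaps Zeb2 on the other strand. The counting was by strand.

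Snai1, on chromosome 2 from 167538195 to 167542814, had 521 normalized reads, close to the 520 of Zeb2. Being a short gene, it had 322 normalized reads per kb of exon (percentile 62.7) and 113 per kb of gene span (percentile 74.2). Per kb of gene span Snai1 was the highest of the 5 factors, with Zeb1 at 0.551 times its level, whereas per kb of exon Zeb1 was 3.46 times above it. Snai2, on chromosome 16 from 14705852 to 14709385, had 58.8 normalized reads, or 29.1 per kb of exon (percentile 37.5) and 16.6 per kb of gene span (percentile 47.7). Snai1 exceeded Snai2 by 11.1 times per kb of exon and by 6.79 times per kb of gene span. Twist1, on chromosome 12 from 33957671 to 33959829, had the fewest reads of the 10 genes. It had 12.3 normalized reads, or 7.55 per kb of exon (percentile 27.9) and 5.69 per kb of gene span (percentile 39.5). Over 18 libraries this would be a sum of 221 normalized reads. Within their small families, Snai3 had 22.8 and Twist2 3.82 normalized reads per kb of exon, below Snai2 and Twist1.

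**Figure D2:**
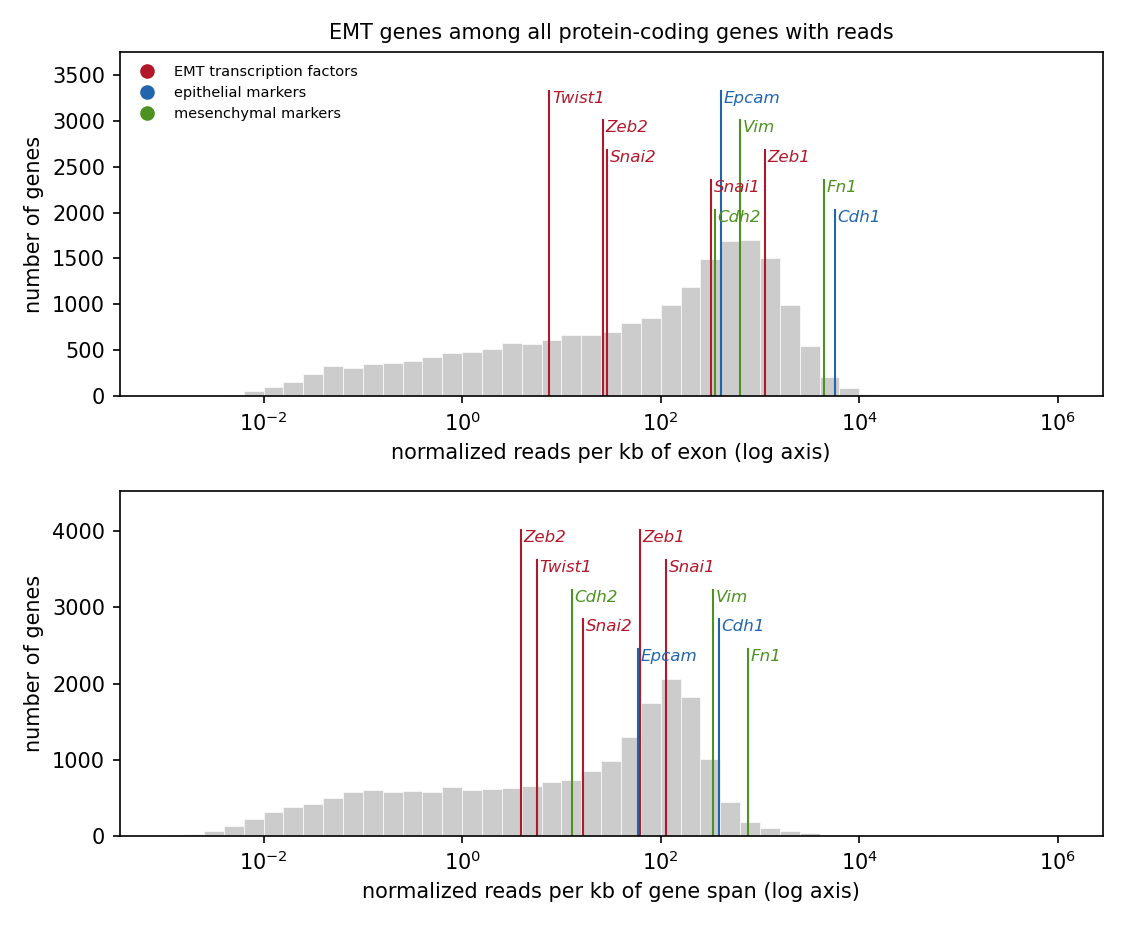
Number of protein-coding genes with reads by level per kb of exon (top) and per kb of gene span (bottom), on log axes, with a line at the level of each of the 10 genes. Cdh1 and Fn1 lie in the upper tail of both distributions, while Twist1, Zeb2, Snai2, Cdh2 and Epcam lie to the left of the peak in both.

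The labelled cell type was checked against marker genes. Beside the counts that follow, 76.6% of all genes with reads reached 10 normalized reads and 62.2% reached 100. All 10 ES cell markers were above 100 normalized reads, from 202 per kb of exon for Utf1 to 12345 for Zfp42 (REX1), with Nanog at 6596. Of 6 fibroblast markers 3 reached 10 normalized reads and 1 reached 100, Pdpn with 992 per kb of exon, while Lum had 2.51 and Fap 0.159. Of 6 trophectoderm markers 4 reached 10, led by Tfap2c with 292 per kb of exon, while Eomes had 47.9 and Elf5 0.685. Of 6 primitive endoderm markers 4 reached 10, led by Gata4 with 117 per kb of exon, while Gata6 had 15.2 and Sox7 0.810. The paper reports that transcription of Nanog, Pou5f1, Sox2 and Klf4 fell after SPT16 depletion, while differentiation markers rose. The marker levels above are averaged over depleted and control cells, so they do not show the state of the depleted cells. The libraries cannot be checked one by one with pooled levels, and the part of other cell types in the levels of the 10 genes was not tested.

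Other genes of the epithelial and mesenchymal programmes were taken from lists written by general knowledge. Their counts at 10 normalized reads stand beside a share of 76.6% over all genes with reads. Of 20 epithelial junction and keratin genes outside the 10, 20 reached 10 normalized reads and 13 lay above the median gene per kb of exon. They ran from Ctnna1, which encodes alpha-catenin and had 5480 normalized reads per kb of exon, through Dsp (desmoplakin) with 184, to Cldn7 (claudin 7) with 22.0. Of 10 regulators of the epithelial state, 10 reached 10 normalized reads, from Klf5 with 3126 per kb of exon through Grhl1 with 372 to Ovol1 with 4.72. The paper counts KLF5 among factors that regulate pluripotency or differentiation. It names KLF4, also on this list (Klf4 at 2222 per kb of exon), among master regulators of pluripotency. This list is thus not particular to epithelial cells. Of 20 mesenchymal matrix and cytoskeleton genes outside the 10, 14 reached 10 normalized reads and 5 lay above the median gene. These ran from Itgb1 (integrin beta 1, found in most cell types) with 1820 per kb of exon through Tagln (transgelin) with 10.3 to Postn (periostin) with 0.0136. Of 10 other EMT transcription factors, 7 reached 10 normalized reads and 3 lay above the median gene, led by Klf8 with 1903 per kb of exon, while Snai3 was in the middle with 22.8 and Foxc2 was listed at 0.

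The median level per kb of exon was 165 for the epithelial genes outside the 10, 284 for the epithelial regulators, 9.38 for the mesenchymal genes and 13.3 for the other EMT factors, beside 120.5 over all genes. Fn1, Vim and Cdh2, at 4402, 636 and 351, thus all had levels above the median of the mesenchymal list, and Fn1 was above each of its 20 genes. As percentiles per kb of exon, the list medians were 53.4 for the epithelial genes and 60.4 for the epithelial regulators. They were 29.3 for the mesenchymal genes and 29.7 for the other EMT factors. The epithelial genes outside the 10 thus lay close to the median gene as a list. The lists were not tested, and all are medians of pooled levels.

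**Figure D3:**
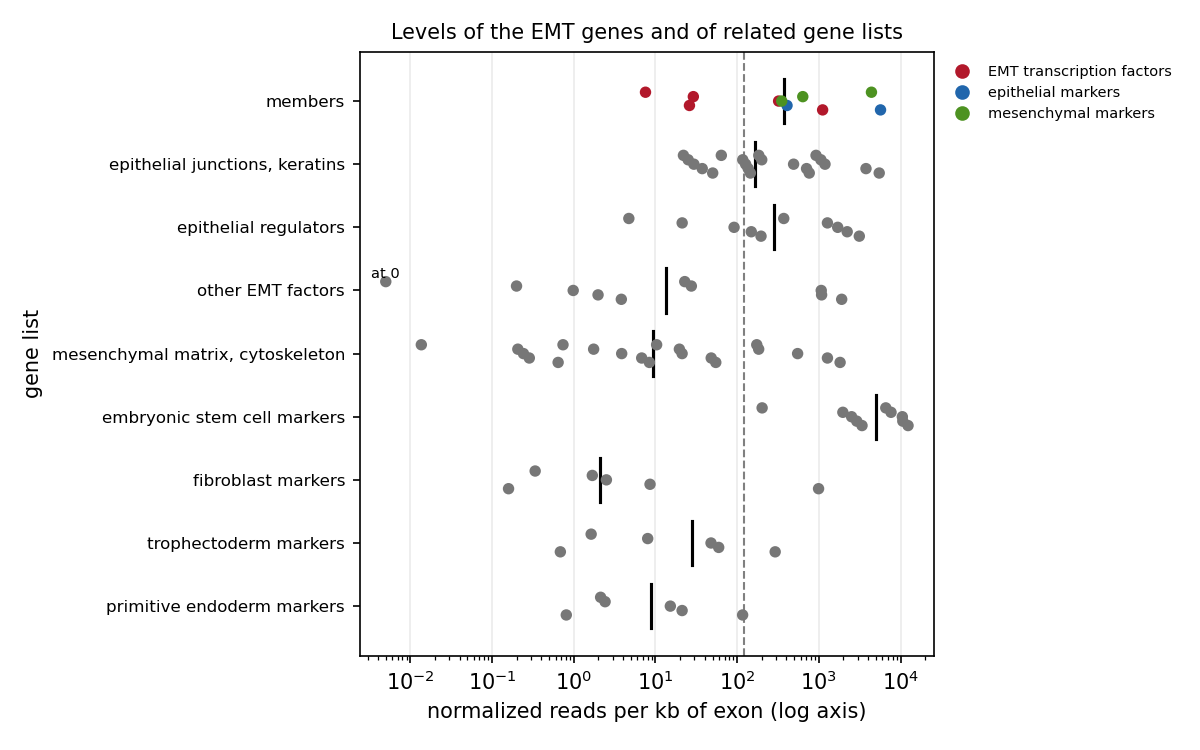
Level per kb of exon, on a log axis, of the 10 genes (coloured by role) and of the genes of each list (grey). Black bars are list medians and the dashed line is the median of all genes with reads. The mesenchymal list and the other EMT factors lie mostly to the left of the dashed line, at medians of 9.38 and 13.3, and ES cell markers lie to the right of it.

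PROMPTs are short-lived transcripts that run from a promoter in the direction opposite to the gene. The deposited table counts them in a window within 1 kb upstream of a start site and antisense to it, away from other protein-coding transcripts, so the windows were taken as equal in length. PROMPTs of Zeb1, Zeb2 and Fn1 were not analysed here. Of the 23257 PROMPTs with reads, 46.8% reached 1 normalized read and 16.0% reached 10, and of the 7 PROMPTs here 5 reached 1 and 2 reached 10.

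The PROMPT of Cdh1 was the highest of the 7, with 44.5 normalized reads (percentile 95.9, rank 962). That of Vim had 28.8 (percentile 93.3), and these 2 held 89.2% of the normalized reads of the 7 PROMPTs. Epcam had a PROMPT level of 5.93 (percentile 78.1). Of the 3 short transcription factor genes, Twist1 had a PROMPT level of 1.26 (percentile 56.8) and Snai2 of 1.08 (percentile 54.4). Both lay above the median of 0.815, while Snai1 lay below it with 0.318 (percentile 33.9). These percentiles are among all PROMPTs with reads, and among those with at least 1 normalized read Twist1 lay at percentile 7.60 and Snai2 at 2.57. The PROMPT of Cdh2 had 0.319 normalized reads (percentile 33.9), so that Cdh1 exceeded Cdh2 by about 140 times at the PROMPT. The size of that ratio is uncertain, because the Cdh2 level would be a sum of only 5.74 normalized reads over 18 libraries. Over 18 libraries 0.318 would be a sum of 5.72 normalized reads, so the order of Snai1 and Cdh2 is not resolved at this depth, and neither can that of Twist1 and Snai2, at sums of 22.6 and 19.5, be told with the spread between libraries unknown.

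Set against its gene, the PROMPT of Snai1 was the lowest of the 7 per kb of gene span, and that of Cdh2 was the lowest with no length, at 0.0113% of the gene level against 0.0610% for Snai1. The 2 tables were normalized separately, so these ratios are descriptions. Shares per kb of exon were not computed, and on that length the gene level of Snai1 (322) lay below that of Cdh2 (351). Per kb of gene span, the PROMPT of Snai1 had 0.282% of the level of the gene, at percentile 5.32 of 13696 genes with reads in both tables, whose median was 8.11%. For Cdh2 the share was 2.48% (percentile 29.7), and for Snai2 it was 6.51% (percentile 45.9). The shares of Vim (8.50%), Epcam (10.0%) and Cdh1 (11.4%) were near the median, at percentiles 50.8, 53.9 and 56.3. Twist1, the gene with the fewest reads, had the highest share, 22.1% (percentile 67.3). With no length, the shares lay at percentile 9.81 for Cdh2, 25.7 for Snai1 and 39.7 for Cdh1. Those of Epcam, Vim, Snai2 and Twist1 lay at 59.5, 64.2, 71.9 and 85.2. The low rank of Snai1, and the side of the median for Cdh1 and Snai2, thus depended on the length used.

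As pooled, gene and PROMPT levels thus did not have the same order among the factors. Snai1 exceeded Twist1 by 19.8 times per kb of gene span at the gene, and had 0.253 times its level at the PROMPT. The PROMPT levels would be sums of 5.72 normalized reads for Snai1 and 22.6 for Twist1 over 18 libraries. With the spread between libraries unknown, their order at the PROMPT is not settled, and the low share of Snai1 rests on the same few reads. Across the 7 genes Spearman's rho between PROMPT level and gene level per kb of gene span was 0.54, and across the 13696 genes it was 0.57. These are correlations across genes of the same libraries, and genes are not independent replicates.

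**Figure D4:**
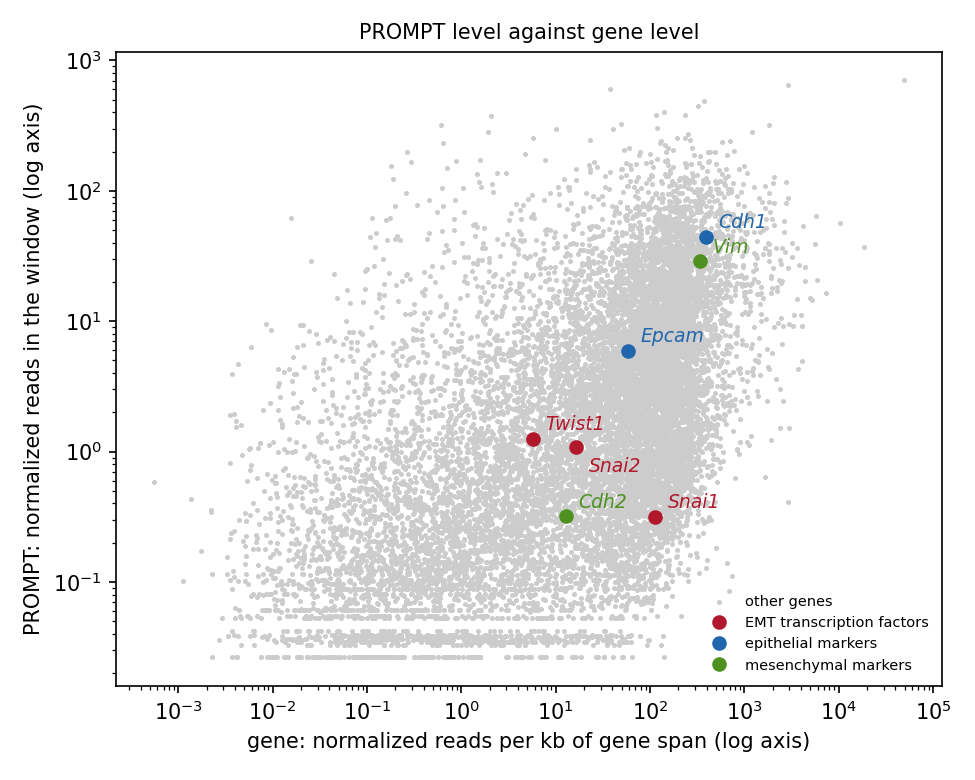
PROMPT level in normalized reads against gene level in normalized reads per kb of gene span, both on log axes, for genes with reads in both tables (grey) and the 7 PROMPTs described (coloured by role). Cdh1 and Vim lie at the upper right, with 44.5 and 28.8 normalized reads in their PROMPT windows. Snai1 lies at the height of Cdh2, with 0.318 against 0.319, but further to the right on this length.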

How the data were processed

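TT-seq libraries from 6 groups of 3 were described. The methods give an approximate sequencing depth for the TT-seq libraries, and the depth reached by each library was not checked here. By the methods, the authors kept unique STAR alignments to mm10 after trimming (Trim Galore) and made stranded counts with featureCounts, while the submitters' processing notes list HTSeq. The deposited signal (baseMean) is the authors' mean over libraries of counts divided by DESeq2 size factors, for Gencode vM25 genes and PROMPTs, and is called normalized reads. It sums to 55.9 M for genes and 0.241 M for PROMPTs, and the lowest value above 0 was 0.0216 for genes. Each deposited table also holds 4 columns of the authors' own comparison (log2 fold change, its standard error, p-value and adjusted p-value), which were not used. The tables of distal DNaseI sites and putative enhancers number their regions without coordinates and were not used here.

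Gene positions, spans and the union of exons came from Gencode vM21 on GRCm38, where 21817 of 21859 gene IDs were found. A percentile is the percent of features with reads that lie below the value. Levels per kb were divided by exon length, with gene span as the alternative. The named genes were the 10 genes and the highest, middle and lowest of each list. Klf4, Pou5f1 and Sox2 were named for what the paper reports of them. The other cadherin, Snai and Twist genes were chosen with their values in view. The members and lists were chosen with earlier results of these data known. Promoter windows came from RefSeq. Calculations used pandas 2.3.3, numpy 2.4.6 and scipy 1.17.1 and plots used matplotlib 3.10.9, all under Python 3.11.15, and the functions were tested on simulated data.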

Additional observations from a re-analysis of the deposited data

How the results depend on the processing

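No comparison between groups was made, so no call could be lost. No paired analysis was possible because the tables hold 1 pooled level per gene and no column per replicate, and for the same reason no replicate could be left out. The median percentile of the 10 genes, 65.5 per kb of exon among genes with reads, was 60.7 among genes with at least 1 normalized read, 55.0 among those with at least 10, 66.4 without a length and 62.2 per kb of gene span. Single genes moved further: Zeb1 lay at percentile 85.1 per kb of exon and 62.6 per kb of gene span, and Vim at 74.9 and 94.4, while among genes with at least 10 normalized reads Twist1 moved from 27.9 to 6.60, Zeb2 from 36.7 to 17.4 and Snai2 from 37.5 to 18.5. The median percentile of the 7 PROMPTs was 56.8 among PROMPTs with reads and 53.1 for the 5 with at least 1 normalized read, among PROMPTs at that level, where Twist1 moved from 56.8 to 7.60 and Snai2 from 54.4 to 2.57. The PROMPT level as a percent of the gene level, with no length, had a median of 0.340% over genes with reads in both tables. The median was 0.451% over those with at least 1 in both, and 3 of the 7 PROMPTs lay below either median. Of these 3, Snai1 and Cdh2 had PROMPT levels below 1 and so were outside the set that gave 0.451%. Of the 10 genes, 10 had at least 1 and at least 10 normalized reads and 8 had at least 100. The number of other EMT factors fell from 7 at 10 normalized reads to 3 at 100, and that of mesenchymal genes from 14 to 9. Over all genes with reads the share fell from 76.6% to 62.2%. At this depth the PROMPTs of Snai1 and Cdh2 had less than 1 normalized read.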
